A study of Rattus norvegicus with 6 samples.

Results

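The genes described here handle vitamin A before and after it becomes retinoic acid: Stra6 and Rbp4 for uptake, Rdh10, Aldh1a1, Aldh1a2 and Aldh1a3 for oxidation, and Crabp1, Crabp2 and Fabp5 for transport inside the cell. They were chosen by name, and the row of highest mean was to be kept for each symbol. Of the 9 genes, 8 had a row, 1 row each, among the 20258 rows with a gene name or accession that were tested. Fabp5 is not analysed here.

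Rat cells labelled as neuroepithelial progenitor cells were flow-sorted from embryos at E10.5. The RNA of each sorted pool was put on 1 Affymetrix array. The 3 retinoic acid pools came from dams gavaged with all-trans retinoic acid at 60 mg/kg in olive oil, and the 3 control pools from dams given the oil alone. Each pool counted as 1 replicate, so p-values measure the spread between pools. The sources used here do not give the sorting gate, the hours from dose to collection, or the embryos and litters behind a pool. A synthetic spike-in mix was added, ERCC ExFold mix 1 to every control and mix 2 to every retinoic acid pool, so the mix goes with the treatment.

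Retinol travels in blood bound to the carrier that Rbp4 encodes, and Stra6 encodes the membrane receptor that moves it into cells. Rdh10 oxidises retinol to retinaldehyde, and the aldehyde dehydrogenases of the Aldh1a family oxidise retinaldehyde to retinoic acid, which binds nuclear receptors. The Crabp proteins hold retinoic acid in the cytoplasm: in cell studies Crabp2 delivers it to retinoic acid receptors, Crabp1 is linked to its breakdown, and Fabp5 can deliver it to the receptor encoded by Ppard. In the early mouse embryo Aldh1a2 is the main source of retinoic acid, made largely in mesoderm beside the neural tube.

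Values are the authors' normalized log2 expression, and a difference of 1 is a doubling. The median over tested rows was 6.73 to 6.79 depending on the pool. Pools of the same group correlated at 0.9965 to 0.9974, and pools of different groups at 0.9937 to 0.9947. Olfactory receptor rows, 1220 in number, served as a guide to the level that the array gives for silent genes, and 95% of them lay below 6.17. Markers of the labelled cell type stood above that level in controls for 5 of 5 measured genes (Sox2, Pax6, Nes, Hes5 and Cdh2). So did 10 of 10 of mesoderm, 6 of 6 of endothelium, 6 of 6 of neural crest and 5 of 5 of surface ectoderm. The same held for 4 of 4 of red cells and 5 of 6 of heart, so the pools held transcripts known from other cell types. Most tested rows also pass this level, since a row with a mean of 6.17 lay above only 34.8% of them. In controls the mean over neural progenitor markers was 7.99 to 8.04. It was higher for endothelium (8.59 to 8.71) and red cells (9.17 to 9.31). Surface ectoderm was about level (7.94 to 8.10), and mesoderm (7.60 to 7.64), neural crest (7.60 to 7.70) and heart (6.73 to 6.78) were lower. Single genes weigh on these means: in controls the globin Hbe1 stood at 13.58 and Hbe2 at 7.25, and the neural marker Cdh2 at 10.65. Each row has its own probes, so these means do not rank the amounts of the cell types. With treatment 5 of 6 endothelial markers fell, and 2 of 5 surface ectoderm and 2 of 4 red cell markers rose. Of the red cell calls, Hbe1 was near 0 after cyclic loess (-0.0028), whereas Hbe2 was at 0.39 and stayed called (limma adjusted p = 0.0014). Among the surface ectoderm calls, that of Grhl3 (0.48) held without any 1 pool and after quantile normalization, cyclic loess or median centring. That of the keratin gene Krt8 (0.33) was lost without 3 of the 6 pools in turn and after each of those 3 scalings. Without control 2 it was 0.20 (limma adjusted p = 0.22).

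Exposure to retinoic acid was compared with vehicle to ask which steps of retinoid handling differed in these cells. Stra6 and Aldh1a2 rose, by 1.35-fold and 1.46-fold. The other 6 genes were not called, and 5 of them had groups that overlapped. The calls were made with limma across all tested rows at a Benjamini-Hochberg adjusted p under 0.05. Thus 2 of 8 genes were called higher, beside 7.69% of all tested rows, and none was called lower, beside 2.06%. The median difference of the 8 genes was 0.11, and that of all tested rows was 0.03. Every retinoic acid pool lay above every control pool for 3 of the 8 genes (Stra6, Aldh1a2 and Rdh10), beside 19.0% of all tested rows.

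**Figure D1:**
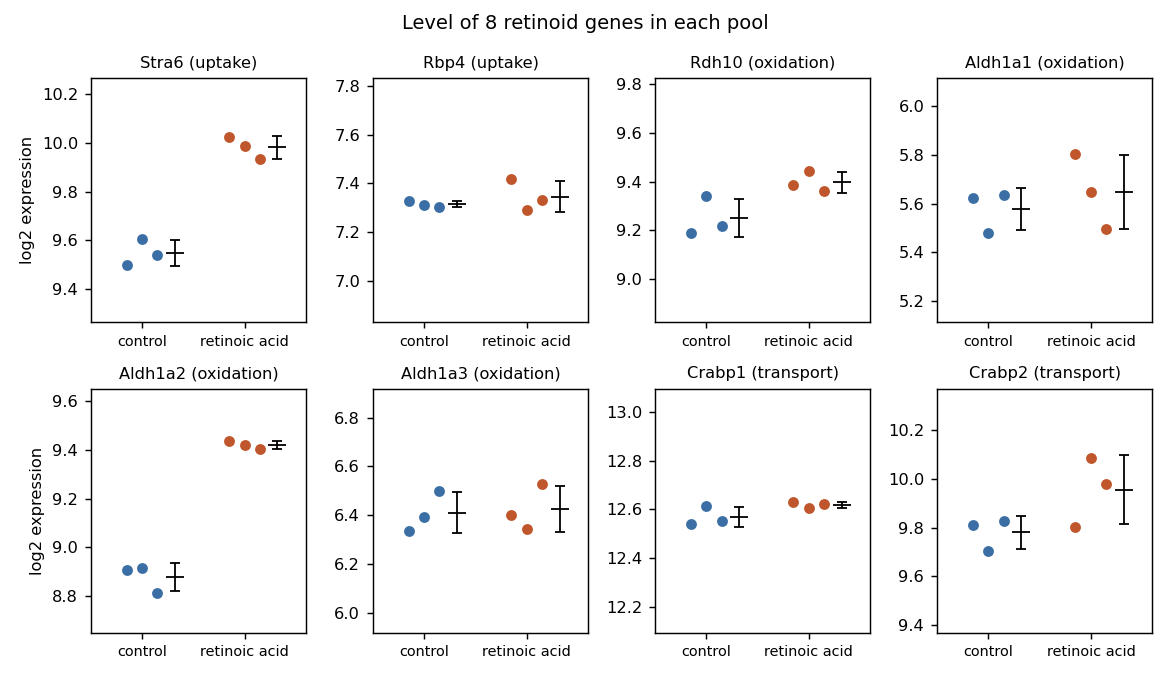
Log2 expression of each of the 8 genes in the 3 control pools (blue) and the 3 retinoic acid pools (orange), with the mean and SD of each group in black. Every panel spans 1 log2 unit at its own level, and only Stra6, Aldh1a2 and Rdh10 have groups that do not overlap.

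Uptake was represented by the retinol receptor and by the plasma carrier, and only the receptor gene was called. Stra6 (chromosome 8, 61920765 to 61939791, plus strand, in the coordinates of the deposited table, whose build the sources used here do not name) stood at 9.50, 9.60 and 9.54 in the control pools and at 10.03, 9.99 and 9.93 in the retinoic acid pools. The lowest retinoic acid pool lay above the highest control. The control mean was 9.55 ± 0.053 (SD, n = 3) and the retinoic acid mean 9.98 ± 0.047 (SD, n = 3). The log2 difference was 0.44 ± 0.067 (SE, limma adjusted p = 0.00051), with rank 217 by p among the tested rows. In pooled cells, more cells that express a gene and more RNA per cell cannot be told apart.

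The Stra6 call held when any 1 pool was left out (differences 0.41 to 0.46, limma adjusted p at most 0.0035). After quantile normalization the difference was 0.31 (limma adjusted p = 0.0094). With each pool shifted to equal levels of the spike-ins whose nominal ratio is 1, it was 0.47 and was no longer called (limma adjusted p = 0.80). The shift came from the mean of 23 spike-in rows, 8 of them below a level of 6 and 5 between 6 and 7. That setting left 40 rows called higher and 7 lower. Of the called markers, only Sox2, Meox1, Egr2, the heart genes Myl7, Actc1 and Myh6, and the endothelial gene Cdh5 stayed called.

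Rbp4 (chromosome 1, 242443795 to 242450998, minus strand) stood at 7.33, 7.31 and 7.30 in controls and at 7.42, 7.29 and 7.33 in retinoic acid. The groups overlapped, with the highest and the lowest pool both from dams given retinoic acid. Its difference was 0.03, with a 95% interval of -0.11 to 0.17 (limma adjusted p = 0.86). In rodent embryos Rbp4 is strongly expressed in visceral yolk sac endoderm. Of 9 measured markers of that tissue 1 was called, Afp, the fetal plasma protein, which fell by 0.33 (limma adjusted p = 0.0059). Their mean level was 6.92 to 6.99 in controls and 6.87 to 6.91 in retinoic acid, and 2 of the 9 (Apoa4 and Foxa3) were within the olfactory receptor range. The part of such cells in the Rbp4 values was not tested.

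The gap between Stra6 and Rbp4 within a sample was 2.17 to 2.29 in controls and 2.60 to 2.70 in retinoic acid. The groups did not overlap, and the mean gap was 0.40 wider with retinoic acid (exact permutation test over samples, two-sided p = 0.10, the smallest that 3 against 3 can give, and 0.17 adjusted over 5 pairs of genes). This test cannot reach 0.05.

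At the oxidation steps only Aldh1a2 was called. Aldh1a2, the retinaldehyde dehydrogenase of trunk mesoderm (chromosome 8, 75692099 to 75771159, plus strand), stood at 8.90, 8.92 and 8.81 in controls and at 9.43, 9.42 and 9.41 in retinoic acid. The 3 retinoic acid pools were nearly equal and all lay above the controls. The means were 8.88 ± 0.056 (SD, n = 3) in controls and 9.42 ± 0.015 (SD, n = 3) in retinoic acid. The log2 difference was 0.54 ± 0.067 (SE, limma adjusted p = 6.7e-05), larger in size than that of 99.3% of tested rows.

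The Aldh1a2 call held without any 1 pool (0.51 to 0.56, limma adjusted p at most 0.00065) and after quantile normalization (0.45, limma adjusted p = 0.00041). After the spike-in shift the difference was 0.58 and was not called (limma adjusted p = 0.29).

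Rdh10 (chromosome 5, 2286373 to 2314154, minus strand), which makes the retinaldehyde that the Aldh1a enzymes use, stood at 9.19, 9.34 and 9.22 in controls and at 9.38, 9.45 and 9.36 in retinoic acid. Its groups did not overlap, but the gap between the highest control and the lowest retinoic acid pool was narrow. The difference was 0.15 with a 95% interval of 0.0016 to 0.29 (limma adjusted p = 0.22). It was 0.05 after quantile normalization or cyclic loess, so its size depends on the scaling.

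Aldh1a1 (chromosome 1, 223731659 to 223773334, plus strand) is the enzyme of the dorsal retina. It stood at 5.63, 5.48 and 5.63 in controls and at 5.80, 5.65 and 5.50 in retinoic acid, below the level that bounds 95% of olfactory receptor rows. Its difference was 0.07 (95% interval -0.10 to 0.24, limma adjusted p = 0.71). At such levels the array shows little of a difference: 9 spike-in rows below a level of 6 with a nominal log2 difference of -2 had a median of -0.04. No change of Aldh1a1 was detectable here, which does not show that there was none.

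Aldh1a3 (chromosome 1, 120847746 to 120881883, minus strand), the enzyme of the ventral retina and the nasal region, stood at 6.33, 6.39 and 6.50 in controls and at 6.40, 6.34 and 6.53 in retinoic acid. The groups overlapped throughout, with a difference of 0.02 (95% interval -0.14 to 0.17, limma adjusted p = 0.94). It lay above 97.7% of olfactory receptor rows. In that range too the array compressed differences, as 4 spike-in rows between levels 6 and 7 with a nominal -2 had a median of -0.54. Among 6 optic vesicle and forebrain markers 1 was called, Lhx2, which fell by 0.47, and their mean level was 6.66 to 6.74 in controls and 6.63 to 6.73 in retinoic acid. The part of such cells in the Aldh1a3 values was not tested.

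Gaps between the Aldh1a enzymes were compared within samples. With retinoic acid the mean gap from Aldh1a2 to Aldh1a1 was 0.47 wider and that to Aldh1a3 0.53 wider, with no overlap between groups in either (exact permutation test, two-sided p = 0.10 each, 0.17 adjusted over 5 pairs). The gap between Aldh1a1 and Aldh1a3 changed by 0.05 (exact permutation p = 0.80). For 2 of these 3 enzymes the level limits what can be read from the comparison.

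Markers of mesoderm and heart also differed between the groups. Of 10 measured mesoderm markers 4 rose (Meox1 by 0.93, Meox2 by 0.50, Tcf15 by 0.30 and Pax1 by 0.24) and Msgn1, a gene of presomitic mesoderm, fell by 0.53. Tcf15 lost its call without control 2 (limma adjusted p = 0.058), and Pax1 lost its call without 5 of the 6 pools in turn (at most 0.22, without control 1). The mean of the mesoderm markers was 7.60 to 7.64 in controls and 7.73 to 7.78 in retinoic acid. All 6 heart markers rose, by 0.32 (Tnni1) to 1.82 (Myl7), and their mean went from 6.73 to 6.78 in controls to 7.60 to 7.71 in retinoic acid. All 10 mesoderm markers and 5 of the 6 heart markers, all but Myh6, stood above the olfactory receptor range in controls. The part of these cells in the Aldh1a2 value was not tested.

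Among rows above the median level, those most like Aldh1a2 over the 6 samples were Gata5 (Pearson r = 0.999), a transcription factor of heart and endoderm that differed by 0.27, and Meox1 (r = 0.996), a homeobox gene of somites. Those most like Stra6 were Bri3 (r = 0.999, difference 0.35) and Nxt1 (r = 0.997, difference 0.29). Such likeness was common, since 501 rows of 10128 had r above 0.95 with Aldh1a2 and 400 with Stra6, and all 6 samples share the split between the groups.

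Of 5 other rows within 500 kb of Aldh1a2 none was called, with differences of -0.13 to 0.18. The nearest rows were Aqp9, a water channel (0.18), and Polr2m, a polymerase subunit (0.10). Near Stra6, 2 of 15 rows were called higher, beside 7.69% of all tested rows. They were RGD1561636 (0.48) and Arid3b, a DNA-binding protein (0.39), and the median of the 15 was 0.03. Rbp4 lay within 500 kb of Cyp26a1, which encodes the main retinoic acid hydroxylase and rose while Rbp4 was at 0.03.

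**Figure D2:**
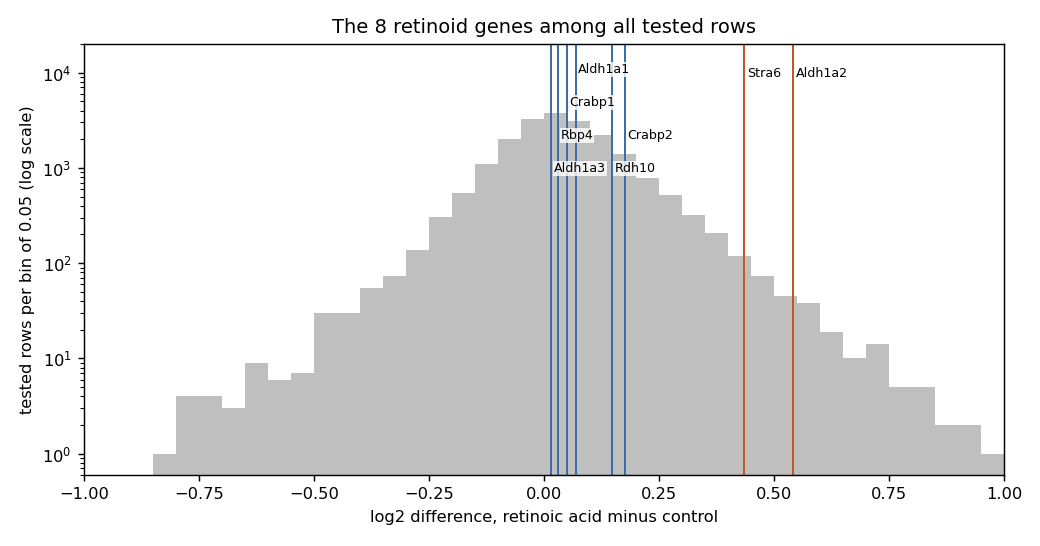
Number of tested rows (log axis) per bin of 0.05 in the log2 difference, retinoic acid minus control, from -1 to 1, with a line at each of the 8 genes (orange where called). Stra6 and Aldh1a2 stand in the sparse upper flank, and the other 6 genes lie between 0.02 and 0.18.

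No gene of intracellular transport was called. Crabp2 (chromosome 2, 180029801 to 180034174, plus strand), the shuttle to the receptors, stood at 9.81, 9.70 and 9.83 in controls and at 9.80, 10.09 and 9.98 in retinoic acid. Retinoic acid 1 lay inside the control range and the other 2 retinoic acid pools above it. The difference was 0.18 with a 95% interval of 0.01 to 0.34 (limma adjusted p = 0.19). Without retinoic acid 1 it was 0.25 (limma adjusted p = 0.066), without retinoic acid 2 it was 0.11 (0.47), and after quantile normalization it was 0.04 (0.79).

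Crabp1 (chromosome 8, 58317337 to 58325375, plus strand), the cytoplasmic binding protein known from hindbrain and neural crest, was among the brightest rows, above 99.7% of them. It stood at 12.54, 12.61 and 12.55 in controls and at 12.63, 12.60 and 12.62 in retinoic acid. The groups overlapped at the top of the control range. Its difference was 0.05 with a 95% interval of -0.09 to 0.19 (limma adjusted p = 0.74).

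The direction of Crabp1 depends on the scaling, since it was called lower after quantile normalization (-0.24, limma adjusted p = 0.031) and after cyclic loess (-0.26, limma adjusted p = 0.028). Both methods change a row by an amount that depends on its level. The deposited columns differed in spread, with an SD over rows of 1.54 in control 3 and 1.67 in retinoic acid 2. Both spike-in rows above a level of 12 with a nominal difference of -2 were recorded at -0.31 and -0.18. The 8 such rows between 7 and 12 had a median of -1.70. Above 12, the 3 rows of nominal ratio 1.5 were recorded at 0.31 to 0.46 and the 3 rows of nominal ratio 2 at 0.42 to 0.53, with medians of 0.41 and 0.43 against 0.32 and 0.53 between 7 and 12. The 2 rows of nominal ratio 1 above 12 were at 0.14 and 0.17. The direction of Crabp1 is not settled by these values.

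Markers of the places where Crabp1 is known gave mixed values. Of 4 hindbrain markers Egr2 (0.75) and Hoxb1 (0.52) rose, and the mean level went from 8.10 to 8.23 in controls to 8.44 to 8.47 in retinoic acid. Of 6 neural crest markers Ngfr fell by 0.25, a call lost without 5 of the 6 pools in turn (at most limma adjusted p = 0.15, without control 2). The part of these cells in the Crabp1 values was not tested. The gap between Crabp1 and Crabp2 within a sample changed by -0.13, from 2.72 to 2.91 in controls to 2.52 to 2.82 in retinoic acid (exact permutation p = 0.40, 0.50 adjusted over 5 pairs).

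**Figure D3:**
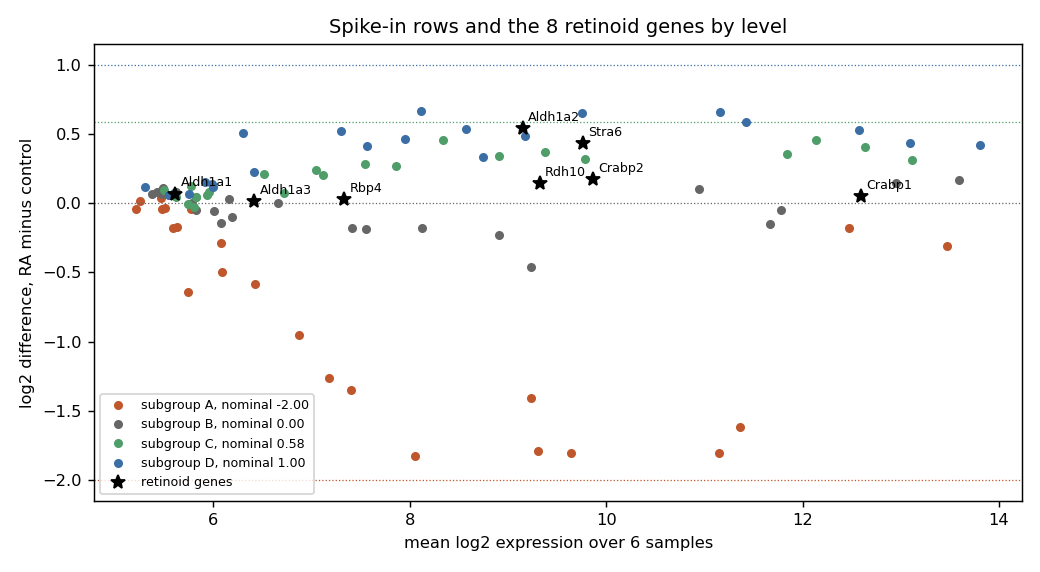
Log2 difference, retinoic acid minus control, against mean level for the 92 spike-in rows, coloured by subgroup with the nominal difference as a dotted line, and for the 8 genes as stars. Recorded differences shrink towards 0 below a level of about 7 for all subgroups and above 12, where Crabp1 lies, for subgroup A. Above 12 the other subgroups also lie closer together than between 7 and 12.

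The spike-ins also give a scale for the genes that rose. Subgroups and nominal ratios come from general knowledge of the product. Between levels 7 and 12, where Stra6 and Aldh1a2 lie, 10 rows with a nominal doubling (difference of 1) were recorded at 0.33 to 0.67, with a median of 0.53. Those of nominal ratio 1.5 (0.585 in log2) were recorded at 0.20 to 0.46, with a median of 0.32 over 9 rows. The recorded value of Stra6 (0.44) lay within the ranges of both sets, and that of Aldh1a2 (0.54) within the range of the first alone. The 8 rows of nominal ratio 1 in that range had a median of -0.18 and spread from -0.46 to 0.10. The spike-in values thus carry an offset of their own, so these ranges do not give the true size of either rise.

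**Figure D4:**
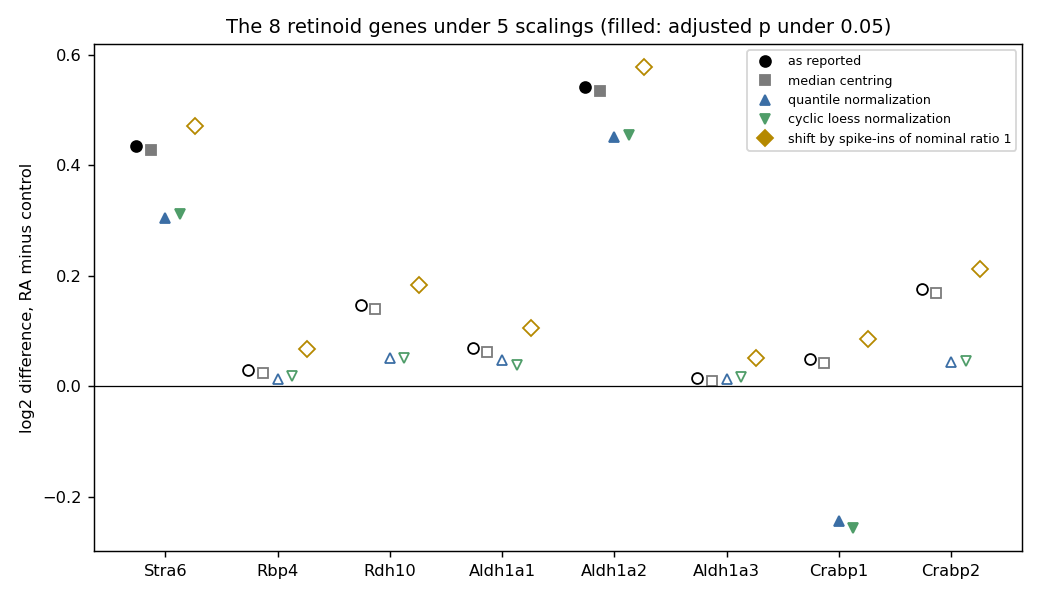
Log2 difference of each of the 8 genes as deposited and under 4 other scalings, filled where the limma adjusted p was under 0.05. Stra6 and Aldh1a2 keep their direction and are filled in all but the spike-in shift, whereas Crabp1 changes sign and is filled after quantile normalization and cyclic loess.

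The rest of the retinoid pathway was examined as a list of 54 genes, of which 51 had a row and 27 stood above the olfactory receptor range. Of the 51 genes 3 were called higher and none lower, beside 7.69% and 2.06% of all tested rows. The called genes were Cyp26a1, Fabp7 and Ppard. The list median was 0.04, close to the 0.03 of all tested rows.

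Clearance is carried out by the Cyp26 hydroxylases. Cyp26a1 stood at 7.32, 7.13 and 7.10 in controls and at 7.75, 7.60 and 7.54 in retinoic acid. Its groups did not overlap, and the difference was 0.44 ± 0.078 (SE, limma adjusted p = 0.0014), lost only under the spike-in shift among the settings tried. Its relatives Cyp26b1, known from hindbrain and limb, and Cyp26c1, known from hindbrain and neck, were at 0.08 each and were not called.

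None of 15 measured genes of retinol carriage and storage was called. Lrat, which esterifies retinol for storage, was at 0.07 (limma adjusted p = 0.62), and Ttr, the plasma partner of the Rbp4 protein, at 0.17 (0.26). The largest difference was that of Scarb1, a lipoprotein receptor that also takes up carotenoids (0.23, limma adjusted p = 0.052). Lrat, Rbp3, Rbp7, Rlbp1, Rpe65, Bcmo1 and Cd36 lay within the olfactory receptor range, where a change would hardly be seen.

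None of 17 oxidoreductases was called either. Dhrs9, Rdh7, Rdh8, Rdh12, Rdh16, Adh1, Adh4, Adh7, Aldh8a1 and Cyp1b1 lay within the olfactory receptor range, where a change would hardly be seen. Dhrs3, which reduces retinaldehyde back to retinol and is induced by retinoic acid in several systems, was at -0.03 with a 95% interval of -0.17 to 0.11. Rdh11, another retinaldehyde reductase, had the lowest value (-0.15, limma adjusted p = 0.22). Adh5, a class III alcohol dehydrogenase, had the highest (0.19, limma adjusted p = 0.13).

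Among 7 receptor genes only Ppard rose, by 0.23 (limma adjusted p = 0.049). That call was lost without any 1 of the 6 pools (at most 0.24, without control 1) and after quantile normalization, cyclic loess or median centring, and with all rows of the symbol averaged the difference was 0.08. Rarb, a well-known target of retinoic acid, stood at 8.93, 8.92 and 8.68 in controls and at 8.78, 8.78 and 8.89 in retinoic acid. The groups overlapped, with a difference of -0.03 and a 95% interval of -0.19 to 0.14.

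Of 9 relatives in the fatty acid binding protein family, Fabp1, Fabp2, Fabp4, Fabp6, Fabp9, Fabp12 and Pmp2 lay within the olfactory receptor range. Fabp7, a protein of radial glia and neural progenitors, rose by 0.32 ± 0.075 (SE, limma adjusted p = 0.012). It stood at 6.93, 7.07 and 7.09 in controls and at 7.35, 7.45 and 7.24 in retinoic acid. All retinoic acid pools lay above the controls, but the call was lost without control 1 (limma adjusted p = 0.071) or retinoic acid 2 (0.053). The neural progenitor markers Sox2 and Pax6 rose as well, by 0.83 and 0.42, 2 of 5 measured, and the mean of the 5 went from 7.99 to 8.04 in controls to 8.24 to 8.32 in retinoic acid.

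**Figure D5:**
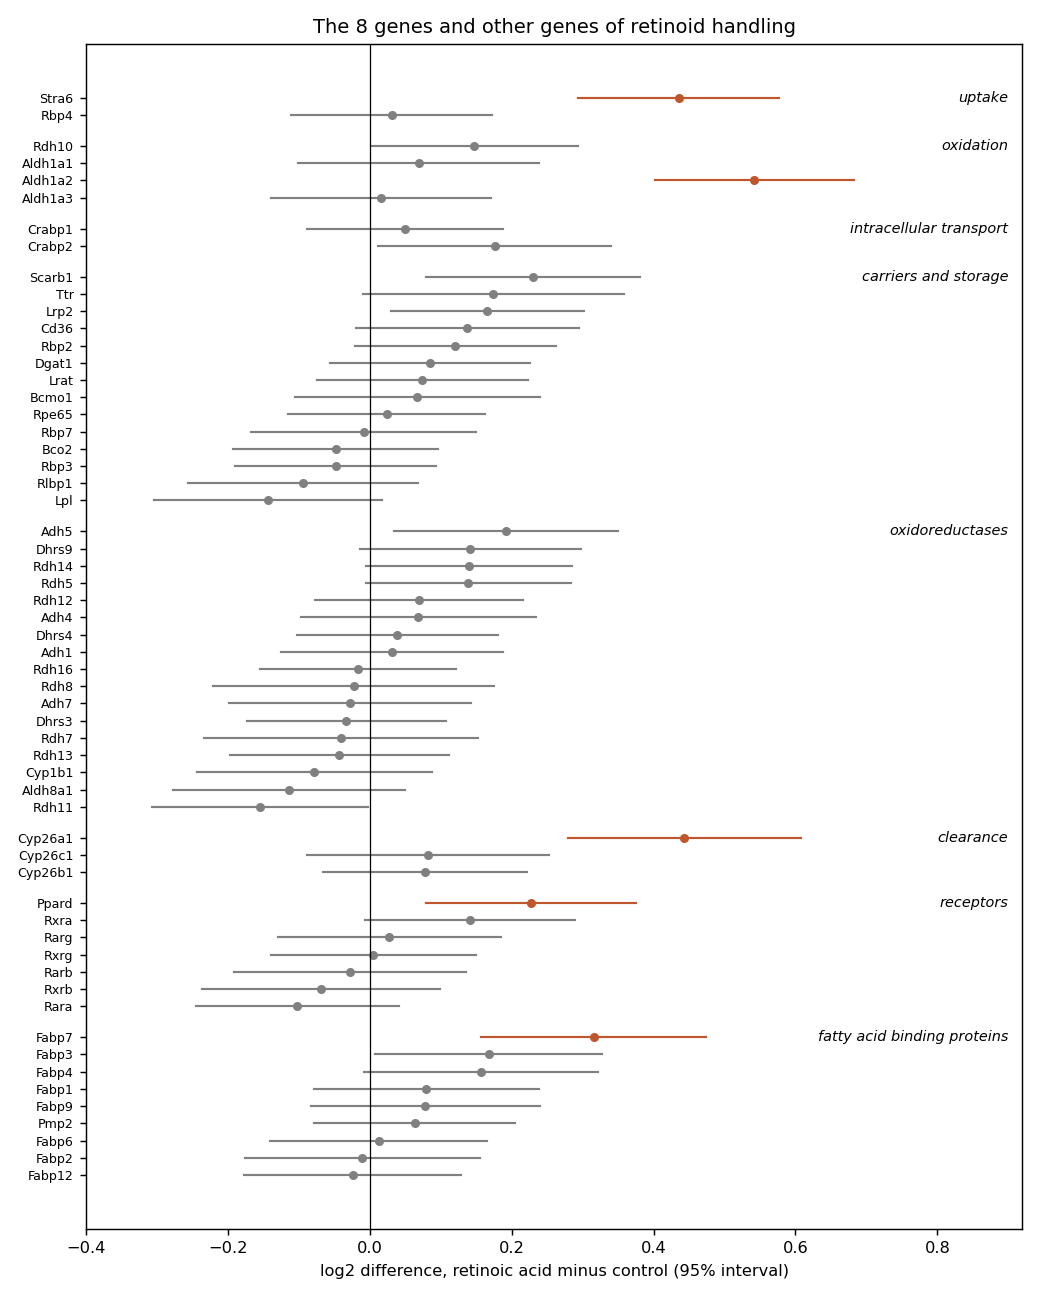
Log2 difference, retinoic acid minus control, with its 95% interval for the 8 genes (top 3 groups) and for other genes of retinoid handling by role, orange where called. The called genes lie in 5 different roles, and most intervals of the other genes include 0.

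Promoters were read to show what lies before the start of the genes that rose. Sequences are from RefSeq, build GRCr8, which differs from the coordinates above, and 7 of the 9 genes matched (all but Rdh10 and Fabp5). Retinoic acid receptors are known to bind pairs of hexamers, classically spaced by 5 bases, at Cyp26a1 and Rarb. The hexamer AGGTCA was searched together with the variant GGGTCA, the variant AGTTCA and the variant GGTTCA on both strands over 300 bases, alone and as direct pairs spaced by 1, 2 or 5 bases. The Stra6, Aldh1a2 and Cyp26a1 sequences below are the 250 bases before the start, on the plus strand, with hexamers of either strand in capitals.
Stra6, chr8:67444507-67444756: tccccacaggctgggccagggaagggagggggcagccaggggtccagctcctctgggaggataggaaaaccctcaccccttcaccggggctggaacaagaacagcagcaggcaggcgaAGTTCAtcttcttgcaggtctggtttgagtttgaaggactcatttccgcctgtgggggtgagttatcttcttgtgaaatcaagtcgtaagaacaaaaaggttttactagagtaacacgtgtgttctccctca
Aldh1a2, chr8:80758391-80758640: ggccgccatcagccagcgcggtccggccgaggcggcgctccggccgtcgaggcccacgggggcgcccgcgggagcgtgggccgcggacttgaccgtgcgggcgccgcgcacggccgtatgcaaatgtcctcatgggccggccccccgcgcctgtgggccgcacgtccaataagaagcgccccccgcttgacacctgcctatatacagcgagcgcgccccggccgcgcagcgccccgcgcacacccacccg
Cyp26a1, chr1:244883572-244883821: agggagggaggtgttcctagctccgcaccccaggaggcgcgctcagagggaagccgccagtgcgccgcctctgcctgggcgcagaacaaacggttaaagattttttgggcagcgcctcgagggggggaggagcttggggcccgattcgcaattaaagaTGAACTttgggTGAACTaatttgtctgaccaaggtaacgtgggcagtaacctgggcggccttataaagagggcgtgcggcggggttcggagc

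A pair spaced by 5 bases occurred in 0.382% of 33469 promoters, and Cyp26a1 and Rarb each held one. The Cyp26a1 pair lies at positions -92 to -76 from the start and is shown on the minus strand. The Rarb pair lies at 25 to 41 on the plus strand, and both are shown with hexamers in capitals to set the element beside the values of the genes that carry it.
Cyp26a1, chr1:244883730-244883746: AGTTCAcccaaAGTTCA
Rarb, chr15:11336416-11336432: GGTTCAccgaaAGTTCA

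Cyp26a1 rose by 0.44, and Rarb, not called, was at -0.03. None of the 7 genes held a pair at any of the 3 spacings in this window. A single hexamer was present in Stra6, at positions -132 to -127, and in Aldh1a1, as in 44.4% of all promoters. Stra6 and Aldh1a2 differed in base composition: the 300 bases held 53.7% G and C with 6 CG steps for Stra6, and 76% with 47 CG steps for Aldh1a2, against a median of 51.7% over all promoters. A match describes letters and not a site in use, and its absence says only that these letters are not in this window.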

How the data were processed

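The authors deposited 1 table of 29656 rows, each a set of array probes, with 6 columns of normalized log2 expression (limma is named in the submitters' processing notes, without a version); the series matrix holds the same values. The log2 unit was read from the deposited values and from the log2 fold change column. Per the file headers, the table also carries the authors' t and B scores and p-values. The sources used here name no array design, normalization method or genome build.

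Rows labelled main with a gene name or accession (20258) were fitted with limma 3.58.1 in R 4.3.3 (lmFit, eBayes, retinoic acid minus control, two-sided, without a block). The p-values were adjusted over all of these rows by Benjamini-Hochberg and called under 0.05. For symbols with several rows the highest mean was kept. The fit was tested on simulated data. Gaps between 2 genes were tested by exact permutation over the 6 samples. Same-numbered samples were not taken as pairs. Their deviations correlated at -0.11, 0.24 and 0.24, which does not settle whether they pair, so a fit with the replicate block is given below. Arrays have no read depth; having 3 per group limits the precision. Alternatives were the replicate block, 4 other scalings, trend and robust moderation, and array weights. Other row sets, the series matrix values, the authors' statistics and leaving out each sample were tried as well.

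The genes, lists and tests were chosen with earlier results of these data known. Text names all 9 genes, called genes of the retinoid list, some markers, some fixed retinoid genes and the 2 rows most like each called gene. Scarb1, Rdh11, Adh5, neighbouring genes and the genes named as within the olfactory receptor range were chosen after their values were seen. The neighbour window of 500 kb, the promoter search and the spike-in level ranges were also chosen after seeing the data. Single values of some list genes are not reported here. Figures used matplotlib 3.10.9 and pandas 2.3.3 in Python 3.11.15.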

Additional observations from a re-analysis of the deposited data

How the results depend on the processing

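Of 18 alternatives, the replicate block, trend and robust moderation, other row sets, the series matrix values and the authors' statistics could not change these differences. Across the 18, Stra6 (0.31 to 0.47) and Aldh1a2 (0.45 to 0.58) kept their direction in all and their call in 17. The exception was the shift by spike-ins of nominal ratio 1, with 0.47 (adjusted p = 0.80) and 0.58 (0.29), where 0 of the 8 genes and 0 of the retinoid list were called and 40 rows were higher and 7 lower, against 1558 and 417. Quantile normalization gave 823 higher and 785 lower, cyclic loess 859 and 767, and each called 1 of the 8 genes lower, Crabp1 (-0.24 and -0.26); the cause was not tested. With main rows lacking both a name and an accession included 826 were lower, by the added rows. Leaving out single samples gave 949 (control 3) to 1261 rows higher and 254 (control 1) to 352 lower, with 1019 higher without retinoic acid 2 and 262 lower without control 2. It called 1 (without control 1 or retinoic acid 2) to 3 retinoid list genes, beside 3, and left the 2 called genes called. Near-zero values changed sign without a call: Rbp4 ran from -0.0049 to 0.0586, Aldh1a1 from -0.0082 to 0.14 and Aldh1a3 from -0.0364 to 0.0613 (-0.0215 without control 1). Hbe1, a globin marker, was at -0.0028 after cyclic loess, and Hbe2 was at 0.39.

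With the replicate block 1876 rows were higher and 540 lower, and 4 of 6 samples correlated best with their own number; Stra6 and Aldh1a2 were called (adjusted p = 0.00045 and 5.8e-05). The numbers are not shown to pair the samples. Gaps between genes cannot pass 0.05 with 3 against 3. In the authors' deposited statistics 1249 tested rows were higher and 323 lower, with Stra6 and Aldh1a2 called. Spike-in rows near the olfactory receptor level show little of a difference, which limits Aldh1a1 and Aldh1a3. Above 12, where Crabp1 lies, this held for the 2 rows of nominal difference -2. The rows of nominal ratio 1.5 and 2 had medians there of 0.41 and 0.43, and those of ratio 1 had 0.15. These sets lay closer together than between 7 and 12, where the medians were 0.32, 0.53 and -0.18.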
